A study of Homo sapiens with 16 samples.

Results

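Outside glycolysis, cells that lack oxygen raise a second set of genes, which serve mitophagy, pH control, collagen modification, histone demethylation, lipid and glycogen storage, and signalling. The 40 genes of this set were looked up by symbol in a table of 19898 genes, and 38 were found there. All 38 passed the filter on low values, and INSIG2-AS1 and MIF were not analysed here. Poly-A RNA was sequenced from the human neuroblastoma line SH-SY5Y after 15 days of differentiation to what the labels call dopamine-like neurons. The 4 groups, each of 4 libraries, were MPP-treated 3D, untreated 3D, MPP-treated 2D and untreated 2D. The 3D cultures grew in a silk-collagen scaffold, and the 2D cultures grew on ordinary dishes. MPP is 1-methyl-4-phenylpyridinium, a toxin taken up by catecholamine cells that blocks complex I of the respiratory chain, and it was given at 1 mM for 48 hours from day 13. The series sets the scaffold beside the dish as a place to model Parkinson's disease. Dish cells were detached with Accutase and pelleted before freezing, whereas scaffolds were frozen whole, so the culture form and the handling cannot be told apart. Nothing in the labels says whether replicates were separate cultures, and the p-values then speak only of the spread among these 16 libraries.

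The hypoxia-inducible factors (HIFs) are pairs of an oxygen-sensitive alpha subunit and a stable beta subunit. With oxygen, prolyl hydroxylases of the EGLN family mark the alpha subunit, the VHL ligase binds it and the proteasome destroys it. Without oxygen the pair binds a short DNA core, the hypoxia response element, near its target genes. EGLN enzymes need oxygen, iron and 2-oxoglutarate, and many of the genes described here encode enzymes with the same needs. Respiration uses up oxygen, so in cultured cells the rate of respiration and the depth of the tissue both bear on how much oxygen a cell meets.

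RefSeq promoter windows (build GRCh38.p14, from 250 bases before to 50 bases after a transcript start) were at hand for 29 of the 38 genes, which had 40 windows between them. The 6 windows below are shown because their genes carry the main patterns of expression described further on. P4HA1 at chr10:73096817-73097116 (minus strand), BHLHE40 at chr3:4979187-4979486 (plus strand) and PPP1R3C at chr10:91633022-91633321 (minus strand) were among the genes that were higher in untreated 3D than in untreated 2D. KDM4C at chr9:6757723-6758022 (plus strand) was not called in that comparison. Its 4 matches to the core came from sites that read the same on both strands and count once on each. NDUFA4L2 at chr12:57240695-57240994 (minus strand) had the highest log2 change of the 38 genes between the untreated cultures, and no match to ACGTG. TFRC at chr3:196082041-196082340 (minus strand) was higher with MPP in both cultures. Sequences run 5′ to 3′ on the gene's strand, and capitals mark the core ACGTG, and its variant with G as the first letter, on either strand.
P4HA1: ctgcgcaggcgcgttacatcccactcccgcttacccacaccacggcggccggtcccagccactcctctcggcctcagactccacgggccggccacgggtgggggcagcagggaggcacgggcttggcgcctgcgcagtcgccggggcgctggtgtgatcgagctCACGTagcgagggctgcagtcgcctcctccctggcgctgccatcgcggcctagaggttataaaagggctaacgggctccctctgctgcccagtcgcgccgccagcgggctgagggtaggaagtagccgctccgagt
BHLHE40: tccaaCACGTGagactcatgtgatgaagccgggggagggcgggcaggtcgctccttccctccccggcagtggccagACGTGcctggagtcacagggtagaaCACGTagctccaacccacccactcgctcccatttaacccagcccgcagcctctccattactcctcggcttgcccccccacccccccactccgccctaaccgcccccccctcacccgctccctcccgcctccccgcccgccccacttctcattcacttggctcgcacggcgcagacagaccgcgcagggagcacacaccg
PPP1R3C: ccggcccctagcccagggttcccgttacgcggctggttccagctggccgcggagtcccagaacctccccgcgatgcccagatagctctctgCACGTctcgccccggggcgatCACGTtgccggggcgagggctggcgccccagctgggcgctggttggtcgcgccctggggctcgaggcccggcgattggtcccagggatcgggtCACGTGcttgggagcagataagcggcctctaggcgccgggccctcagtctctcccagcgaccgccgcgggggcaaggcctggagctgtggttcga
KDM4C: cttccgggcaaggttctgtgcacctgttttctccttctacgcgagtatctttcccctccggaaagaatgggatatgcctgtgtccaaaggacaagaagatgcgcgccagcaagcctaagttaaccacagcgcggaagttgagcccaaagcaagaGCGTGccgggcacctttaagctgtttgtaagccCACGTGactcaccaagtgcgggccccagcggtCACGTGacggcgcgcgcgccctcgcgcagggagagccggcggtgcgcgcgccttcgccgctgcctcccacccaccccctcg
NDUFA4L2: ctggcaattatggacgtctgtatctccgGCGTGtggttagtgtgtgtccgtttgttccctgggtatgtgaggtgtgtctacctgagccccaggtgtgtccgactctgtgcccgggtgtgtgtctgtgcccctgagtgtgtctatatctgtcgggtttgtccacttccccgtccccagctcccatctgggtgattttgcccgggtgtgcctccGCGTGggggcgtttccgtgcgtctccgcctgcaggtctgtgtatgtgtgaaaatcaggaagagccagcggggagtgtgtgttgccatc
TFRC: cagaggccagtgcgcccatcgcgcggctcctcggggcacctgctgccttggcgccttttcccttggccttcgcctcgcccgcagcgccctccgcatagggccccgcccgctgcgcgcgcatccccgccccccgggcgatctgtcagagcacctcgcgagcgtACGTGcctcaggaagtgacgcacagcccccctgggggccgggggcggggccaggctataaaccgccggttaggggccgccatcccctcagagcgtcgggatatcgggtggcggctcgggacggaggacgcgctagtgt

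Motifs were searched on both strands. The first was the core ACGTG, the next its variant GCGTG, and the last the E-box, spelt CACGTG, which holds the core on each strand and so counts as 2 matches to it. ACGTG stood in 25 of the 40 windows (62.5%), against 24.2% of the 18819 windows of all genes tested. GCGTG stood in 65.0% of the members' windows and in 46.6% of the windows of all genes tested. Either of these stood in 92.5% of the members' windows and in 58.6% of those of all genes tested. CACGTG stood in 32.5% of the members' windows, against 8.82% of all. The members' windows were also richer in G and C, with a median of 69.2% against 64.3%, and the part of base composition in these shares was not tested. ACGTG began at position -86 of the P4HA1 window and -88 of the TFRC window, counted from the transcript start. BHLHE40 held it at -245, -244, -174 and -149, and PPP1R3C at -159, -138, -45 and -44, where adjacent positions are 1 E-box read on both strands. KDM4C had E-boxes at -63 and -31 and no other match to ACGTG.

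**Figure D1:**
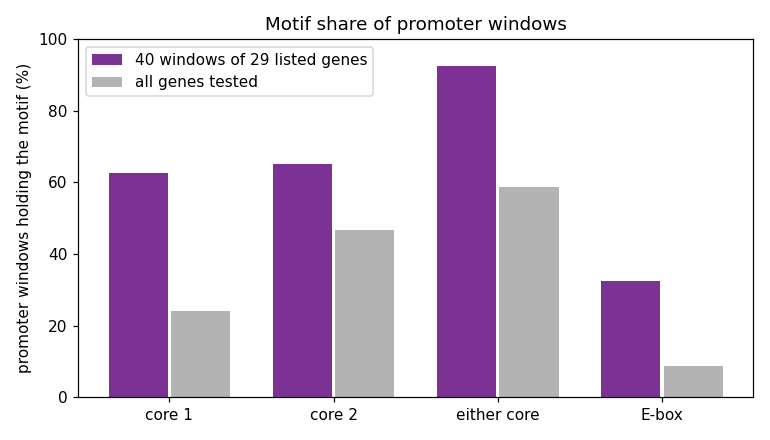
Share of promoter windows (%, vertical axis) that held each motif on either strand, for the 40 windows of 29 listed genes (purple) and the 18819 windows of all genes tested (grey). Core 1 is spelt ACGTG, core 2 is its variant GCGTG, and the E-box is spelt CACGTG. The members' bars are 62.5% for core 1 and 32.5% for the E-box, above 24.2% and 8.82% for all genes tested.

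Libraries held 24589435 to 46359070 reads, and untreated 3D was the shallowest group at 24589435 to 34658873. Reads of the 13 mitochondrially encoded mRNAs made up 1.04% to 1.52% of all reads in MPP-treated 3D and 3.30% to 6.84% in untreated 3D. They made up 0.791% to 0.949% in MPP-treated 2D, against 7.72% to 11.6% in untreated 2D. The 6.84% was that of replicate 1, and the next highest untreated 3D library had 3.89%. Of 13 dopamine neuron markers, 7 were in the table and the other six, SLC6A3 among them, were not analysed here. Their summed level was 12048 to 15179 normalised reads in MPP-treated 3D, against 22034 to 24626 in untreated 3D. It was 3948 to 4278 in MPP-treated 2D, against 4013 to 4282 in untreated 2D, so that untreated 3D had the highest sums. TH, which makes DOPA, averaged 4241 ± 237, 5585 ± 823, 595 ± 91.0 and 341 ± 25.8 in the groups in that order (SD, n = 4 each). DDC averaged 2851 ± 602, 14143 ± 567, 2301 ± 113 and 2745 ± 154, and SLC18A2 6007 ± 867, 3129 ± 173, 1153 ± 68.5 and 975 ± 76.6. TH, DDC and SLC18A2 made up nearly all of these sums. With MPP in 3D the means of TH and DDC were lower and that of SLC18A2 was higher. PITX3, LMX1B and EN2 were scarce, with group means of 7.49 to 76.8, and EN2 had lower means in 3D than in 2D. NR4A2, a defining factor of midbrain dopamine neurons, stayed near the floor with group means of 2.95 to 7.70 normalised reads. Neuronal markers moved with the culture. The 8 noradrenergic markers summed to 162969 to 210940.3 (MPP-treated 3D), 209601 to 241685 (untreated 3D), 246763 to 263259 (MPP-treated 2D) and 264426 to 291532 (untreated 2D), with 2 higher and 6 lower in 3D with MPP, and 2 higher and 5 lower untreated. The 10 pan-neuronal markers summed to 80973 to 96162 (MPP-treated 3D), 86703 to 93720.4 (untreated 3D), 152187 to 173472 (MPP-treated 2D) and 140554 to 156529 (untreated 2D), with 1 higher and 8 lower in 3D both with MPP and untreated. Of all genes tested, 19% were higher and 19.9% lower in 3D with MPP, and 23.2% and 23% untreated. Both neuronal lists thus had lower sums in the scaffold, where the sums of the dopamine markers, mostly TH, DDC and SLC18A2, were higher. The 11 cycling-cell genes had sums of 11475 to 18796 (MPP-treated 3D), 14612 to 16156 (untreated 3D), 12039.6 to 14622 (MPP-treated 2D) and 30947 to 36217 (untreated 2D). Untreated 2D thus stood above the other groups in cycling-cell genes. The 10 mesenchymal markers summed to 9255 to 11749 (MPP-treated 3D), 9116 to 12069 (untreated 3D), 13556 to 16034 (MPP-treated 2D) and 11673 to 13821 (untreated 2D). The 8 Schwann cell and glia markers were low, at 743 to 1154 in all 16 libraries. The part of these marker levels in the results below was not tested.

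Most of the 38 genes were higher in the untreated scaffold than on the untreated dish, and most were lower in the scaffold with MPP than without it. Both comparisons, and the difference of MPP effects below, use the same 4 untreated 3D libraries, so they are not independent of each other. Untreated 3D had the highest mean of the 4 groups for 28 of the 38, a count that was not made over all genes. In untreated 3D against untreated 2D, limma called 30 genes higher and 1 lower, beside 23.2% and 23% of all 16984 genes tested, at a Benjamini-Hochberg adjusted p under 0.05. MPP in 3D left 1 gene higher and 24 lower, beside 17% and 17.6% of all genes. On the dish, MPP left 6 genes higher, a share of 15.8% beside 17.7% of all genes, and 13 lower, a share of 34.2% beside 16.9%. With library totals made equal, 8 were higher and 9 lower on the dish, and the members' median log2 change was -0.030 in place of -0.13. Where both cultures had MPP, 19 genes were higher and 4 lower in 3D, beside 19% and 19.9% of all genes. The MPP effect itself differed between 3D and 2D for 23 genes. It was more positive in 3D for 1 of them and more negative for 22, beside 7% and 8.32% of all genes. With the totals of nuclear genes made equal, 66.9% of the calls over all genes for this difference were on the positive side, against 45.7% with the deposited scaling, and the members then had 1 call higher and 21 lower. Fewer cells of a type and less RNA per cell cannot be told apart in such bulk samples.

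The median log2 change of the members was -0.84 for MPP in 3D, against 0.0033 for all genes, and -0.13 for MPP in 2D, against 0.020. It was 0.27 for MPP-treated 3D against MPP-treated 2D, where all genes had 0.0088, and 1.01 for untreated 3D against untreated 2D, where all genes had 0.010. Changes of at least 2-fold that passed the test numbered 0 higher and 14 lower for MPP in 3D (2.5% and 4.05% of all genes) and 3 higher and 1 lower for MPP in 2D (4.04% and 2.34%). They numbered 5 higher and 0 lower for 3D against 2D with MPP (3.13% and 4.95%), and 19 higher and 0 lower untreated (6.92% and 5.48%). For the difference of MPP effects they numbered 0 and 11 (2.07% and 3.3%). All 4 libraries of untreated 3D lay above all 4 of untreated 2D for 30 genes and below them for 1, beside 19.4% and 20.3% of all genes. All 4 of MPP-treated 3D lay above all 4 of untreated 3D for 1 gene and below them for 23, beside 13.5% and 14.1%. On the dish the treated libraries lay above the untreated ones for 6 genes and below them for 15, beside 19.8% and 19%. With MPP in both, 3D lay above 2D for 20 genes and below it for 4, beside 18.5% and 19%. As a share of all reads, the 38 genes took 0.255% to 0.297% in MPP-treated 3D, against 0.341% to 0.387% in untreated 3D. They took 0.199% to 0.222% in MPP-treated 2D, against 0.159% to 0.167% in untreated 2D, and the ranges of the 4 groups did not overlap. All reads include the mitochondrially encoded mRNAs, whose share fell with MPP, and the part of that fall in these shares was not tested. Leaving out WSB1 and TFRC, chosen after their values were seen, turned the direction of the mean share on the dish. The change was then small, at -0.0035 percentage points, where untreated 2D had an SD of 0.0032. Without them the other 36 genes took 0.132% to 0.136% in MPP-treated 2D, against 0.134% to 0.142% in untreated 2D, and these ranges overlapped. In the scaffold the 36 genes took 0.163% to 0.178% in MPP-treated 3D, against 0.277% to 0.316% in untreated 3D.

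**Figure D2:**
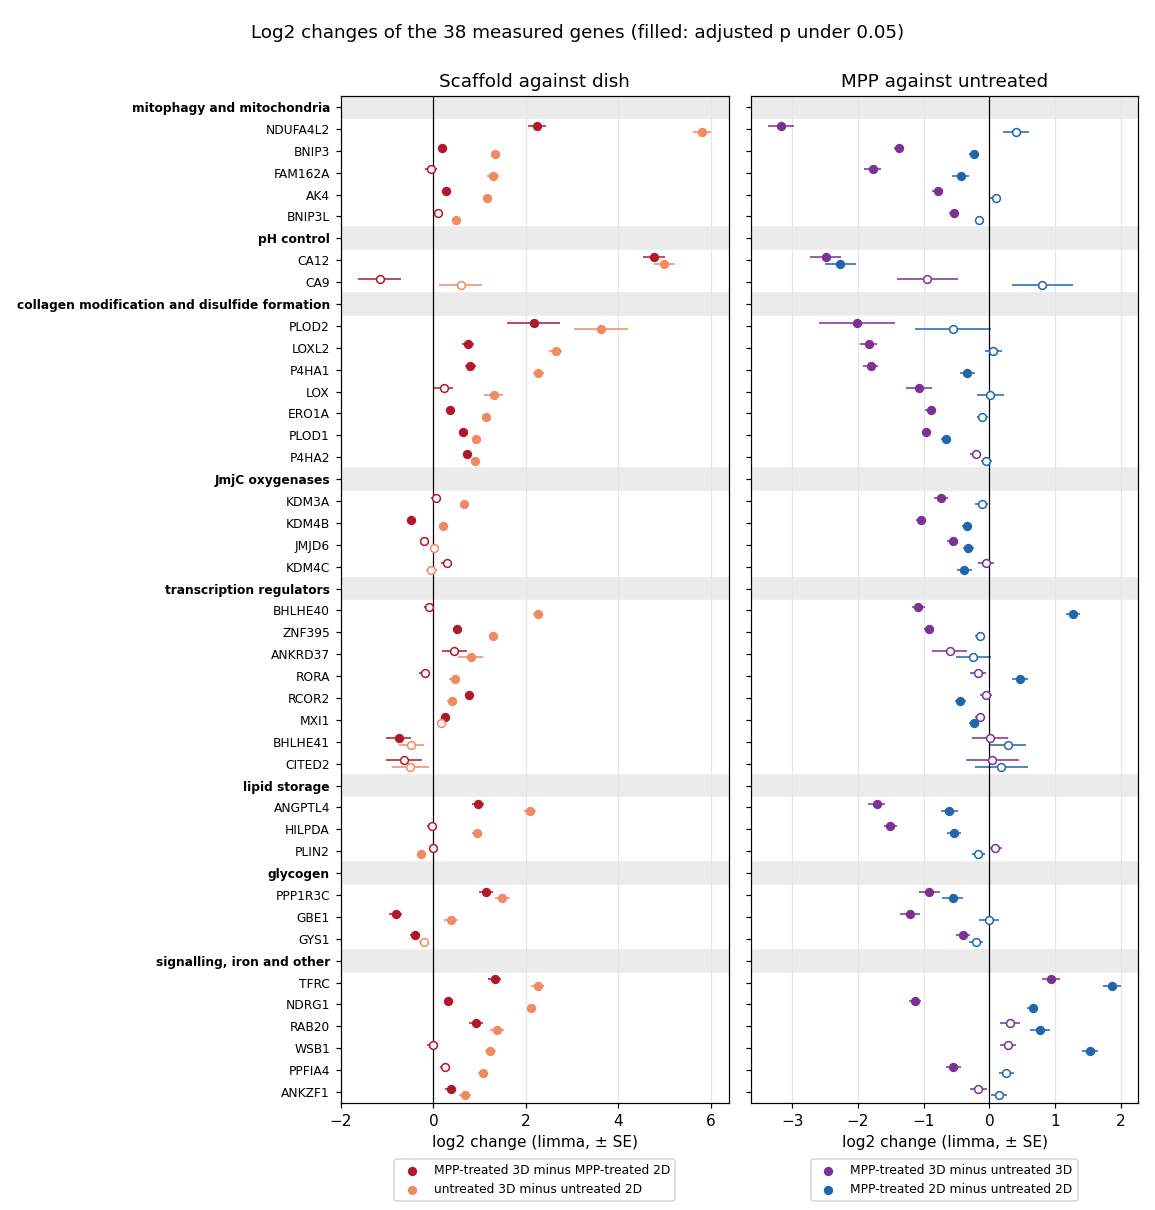
Log2 changes of the 38 genes with their SE (horizontal axes; limma on log2 of value plus 1), grouped by role. The left panel sets 3D against 2D with MPP (dark red) and untreated (orange), the right panel MPP against untreated in 3D (purple) and in 2D (blue), and filled points passed an adjusted p under 0.05. NDUFA4L2 and CA12 lie farthest right in the untreated comparison, at 5.81 and 5.00, and TFRC is the 1 filled purple point right of 0.

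Calls can be set beside the promoter windows described above, with 22 genes that held ACGTG in a window and 7 that did not. In untreated 3D against untreated 2D, 16 of the 22 were called higher and 1 lower, beside 23.2% and 23% of all genes tested. The median log2 change of the 22 was 1.15. Of the 7 without it, which were CA12, GYS1, KDM3A, NDUFA4L2, P4HA2, PLOD1 and RORA, 6 were called higher, with a median of 0.89. With MPP in 3D, 13 of the 22 and 5 of the 7 were called lower, beside 17.6% of all genes tested. Calls over all genes were not split by the motif. The window is short, and a match in it is not a bound site.

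Mitophagy and mitochondrial genes were higher in the untreated scaffold without exception, and all 5 fell there with MPP. BNIP3 and BNIP3L encode receptors on the outer mitochondrial membrane that hand mitochondria to the autophagosome. NDUFA4L2 encodes a hypoxia-induced relative of a respiratory chain subunit, AK4 a mitochondrial adenylate kinase and FAM162A a small mitochondrial protein. NDUFA4L2 had 683, 525, 367 and 538 normalised reads in MPP-treated 3D, against 4259, 4870.3, 4668 and 4898 in untreated 3D. NDUFA4L2 in 2D had 131, 111, 105 and 92.4 with MPP, against 50.8, 88.4, 91.1 and 110.1 untreated. The gene was low on the dish, where the treated and untreated libraries overlapped, highest in the untreated scaffold, and in between in the scaffold with MPP. The log2 change ± SE was -3.18 ± 0.19 (adjusted p = 1.92e-11) for MPP in 3D and 0.41 ± 0.19 (adjusted p = 0.11) for MPP in 2D by limma. Between cultures it was 2.23 ± 0.19 (adjusted p = 5.82e-09) with MPP and 5.81 ± 0.19 (adjusted p = 1.91e-16) untreated, the highest of the 38 genes in that comparison.

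BNIP3 had 3257, 3074, 3456 and 3426 normalised reads in MPP-treated 3D, against 7725, 8974, 9403 and 8306 in untreated 3D. BNIP3 in 2D had 3014, 2829.8, 2975 and 2734 with MPP, against 3530.1, 3204, 3627 and 3227 untreated. Untreated 3D stood far above the other 3 groups, and the MPP-treated 3D libraries overlapped with those of the untreated dish. For BNIP3 the log2 change was -1.38 ± 0.071 (adjusted p = 1.07e-12) for MPP in 3D and -0.23 ± 0.071 (adjusted p = 0.0138) for MPP in 2D by limma, and the effects differed by -1.14 ± 0.10 (adjusted p = 3.34e-08). Its relative BNIP3L changed by -0.54 ± 0.063 (adjusted p = 6.17e-07) for MPP in 3D and 0.49 ± 0.063 (adjusted p = 1.31e-06) for untreated 3D against untreated 2D. Per kilobase of exon, BNIP3 stood at 0.580 ± 0.0311 of the BNIP3L level in MPP-treated 3D, 1.03 ± 0.0386 in untreated 3D, 0.547 ± 0.0506 in MPP-treated 2D and 0.575 ± 0.0239 in untreated 2D (SD, n = 4 each). FAM162A averaged 349 ± 41.8, 1214 ± 256, 361 ± 21.9 and 489.6 ± 42.1 in the same order, and AK4 averaged 1729 ± 94.0, 3008 ± 425, 1429 ± 104 and 1335 ± 46.7. FAM162A fell with MPP in both cultures, by -1.78 ± 0.13 in 3D and -0.44 ± 0.13 in 2D as log2 changes. BNIP3 lost its call for MPP on the dish without untreated 2D replicate 3 (adjusted p = 0.0532) and with equal library totals (adjusted p = 0.183). BNIP3 lost its call for MPP-treated 3D against MPP-treated 2D without MPP-treated 3D replicate 3 or 4 (adjusted p = 0.0867 and 0.0905) and without MPP-treated 2D replicate 2 or 4 (adjusted p = 0.0759 and 0.0982). BNIP3L was not called for MPP on the dish but passed without untreated 3D replicate 3 or 4 (adjusted p = 0.0303 and 0.0446) and without MPP-treated 2D replicate 4 (adjusted p = 0.0394). BNIP3L also passed there with DESeq2 (adjusted p = 0.0456), equal nuclear totals (adjusted p = 0.00986) and quantile normalisation (adjusted p = 0.0282). A mean of at least 50 (adjusted p = 0.0469) and only the groups compared (adjusted p = 0.0212) gave the call too. NDUFA4L2 was not called for MPP on the dish but passed without untreated 2D replicate 4 (adjusted p = 0.0408) and with equal library totals (adjusted p = 0.0418). AK4 lost its call for MPP-treated 3D against MPP-treated 2D without MPP-treated 2D replicate 2 (adjusted p = 0.0643).

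Of 17 genes that work with these receptors, MPP in 3D left 6 higher and 1 lower, beside 17% and 17.6% of all genes. Untreated 3D had 4 of them higher and 6 lower than untreated 2D, beside 23.2% and 23% of all genes, and the share higher was near that of genes at large. The same percentages stand behind the counts of the role lists and of the other lists below. For MPP in 2D they were 17.7% higher and 16.9% lower, and for 3D against 2D with MPP 19% and 19.9%. OPTN, an autophagy receptor, changed by 0.56 ± 0.075 (adjusted p = 4.43e-06) with MPP in 3D and 0.67 ± 0.075 (adjusted p = 4.36e-07) in 2D in log2, and differed by -0.50 ± 0.075 (adjusted p = 1.09e-05) between untreated 3D and untreated 2D.

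The carbonic anhydrases at the cell surface, CA9 and CA12, turn carbon dioxide into bicarbonate and protons outside the cell. CA12 was higher in the scaffold and fell with MPP in both cultures, and CA9 passed in no comparison. CA12 had 403, 319.5, 359 and 337 normalised reads in MPP-treated 3D, against 1582, 2199, 2403 and 1887 in untreated 3D. CA12 in 2D had 8.08, 16.2, 14.5 and 10.6 with MPP, against 37.9, 90.5, 62.8 and 65.6 untreated. No pair of groups overlapped, and the scaffold libraries were above the dish libraries with MPP as well as without. The log2 change of CA12 with MPP was -2.49 ± 0.23 (adjusted p = 2.84e-08) in 3D and -2.27 ± 0.23 (adjusted p = 1.52e-07) in 2D by limma. The difference of -0.22 ± 0.33 between them did not pass (adjusted p = 0.718), which does not show that the effects were alike. The 3D excess of CA12 was 4.78 ± 0.23 (adjusted p = 3.41e-13) with MPP and 5.00 ± 0.23 (adjusted p = 8.75e-14) untreated. It was the largest excess of the 38 genes where both cultures had MPP.

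CA9, the carbonic anhydrase most often used as a mark of hypoxia in tumours, was close to the detection floor. CA9 had 14.4, 17.9, 11.1 and 12.9 normalised reads in MPP-treated 3D, against 27.4, 16.4, 25.3 and 50.7 in untreated 3D. CA9 in 2D had 24.2, 37.7, 44.5 and 26.4 with MPP, against 24.1, 41.1, 15.7 and 6.35 untreated. The groups overlapped except for MPP-treated 3D, which lay below all MPP-treated 2D libraries, and no comparison passed by limma. Its log2 change was 0.59 ± 0.47 (adjusted p = 0.313) for untreated 3D against untreated 2D and -0.95 ± 0.47 (adjusted p = 0.123) for MPP in 3D. Log2 changes on values plus 1 understate the change of genes this low, as they do for PLOD2, CITED2 and CA12 on the dish. CA9 was not called for MPP-treated 3D against MPP-treated 2D but passed without untreated 3D replicate 2 or 4 (adjusted p = 0.0499 and 0.0472) and without untreated 2D replicate 2 or 4 (adjusted p = 0.0403 and 0.0272). CA9 also passed there with DESeq2 (adjusted p = 0.029), a pseudocount of 5 (adjusted p = 0.0417) and only the groups compared (adjusted p = 0.0213). CA9 was not called for the difference between the MPP effects but passed without untreated 2D replicate 2 (adjusted p = 0.0292). Of 15 other carbonic anhydrases and pH transporters 12 could be tested. MPP in 3D left 6 of the 12 higher and 1 lower, and untreated 3D had 3 higher and 4 lower than untreated 2D.

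All 7 genes of collagen modification and disulfide formation were higher in the untreated scaffold, and 6 of them fell there with MPP. P4HA1 and P4HA2 are the catalytic subunits of collagen prolyl 4-hydroxylase, PLOD1 and PLOD2 hydroxylate collagen lysines, LOX and LOXL2 oxidise lysines for cross-links, and ERO1A recharges the disulfide machinery of the endoplasmic reticulum. The scaffold itself is made of silk and collagen, and the files measure RNA and not matrix. P4HA1 had 1939.5, 1469, 1579.7 and 1628 normalised reads in MPP-treated 3D, against 4999, 6062, 7637 and 4785 in untreated 3D. P4HA1 in 2D had 1001, 915, 859 and 1016 with MPP, against 1202, 1233, 1260.5 and 1097 untreated. The 4 groups were free of overlap, with untreated 3D on top and MPP-treated 2D at the bottom. P4HA1 changed by -1.81 ± 0.12 (adjusted p = 4.92e-11) with MPP in 3D and by -0.34 ± 0.12 (adjusted p = 0.0271) in 2D on the log2 scale, and the effects differed by -1.47 ± 0.16 (adjusted p = 9.45e-07) by limma. Untreated 3D exceeded untreated 2D by 2.27 ± 0.12.

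LOXL2 had 1114, 955, 1146 and 794 normalised reads in MPP-treated 3D, against 3437, 3616, 3516 and 3636 in untreated 3D. LOXL2 in 2D had 428, 624, 688 and 670.5 with MPP, against 541, 653, 605 and 487 untreated. The scaffold groups stood apart from each other and from the dish, where the treated and untreated libraries overlapped. LOXL2 changed by -1.84 ± 0.13 (adjusted p = 4.46e-10) with MPP in 3D, against 0.061 ± 0.13 (adjusted p = 0.762) in 2D, on the log2 scale by limma. PLOD1 had 7942, 7189, 6813 and 7629 in MPP-treated 3D, against 13186, 14455, 15014 and 14924 in untreated 3D. PLOD1 in 2D had 4601, 4791, 4662 and 4951 with MPP, against 7929.6, 7749.9, 7405 and 7105 untreated. PLOD1 fell in both cultures without overlap, by -0.96 ± 0.064 (adjusted p = 9.31e-11) in 3D and -0.67 ± 0.064 (adjusted p = 5.08e-08) in 2D as log2 changes.

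The other four enzymes were given by their means in MPP-treated 3D, untreated 3D, MPP-treated 2D and untreated 2D (SD, n = 4 each). P4HA2 averaged 2438 ± 286, 2807 ± 179, 1465 ± 90.7 and 1509.6 ± 68.5, and it was the 1 collagen enzyme not called lower with MPP in 3D, at -0.21 ± 0.083 (adjusted p = 0.0555). ERO1A averaged 3564 ± 188, 6682 ± 1118, 2779.6 ± 50.7 and 2994 ± 77.8. LOX averaged 229.6 ± 64.0, 487 ± 139, 194 ± 33.4 and 192 ± 30.5. PLOD2 was scarce, with 28.3 ± 19.4, 101 ± 22.1, 5.66 ± 4.34 and 8.93 ± 6.69, so its log2 change of 3.62 ± 0.58 for untreated 3D against untreated 2D rested on few reads. Per kilobase of exon, P4HA1 stood at 1.87 ± 0.206 times P4HA2 in MPP-treated 3D, 5.73 ± 1.09 times in untreated 3D, 1.79 ± 0.242 times in MPP-treated 2D and 2.18 ± 0.140 times in untreated 2D. The P4HA1 share of the pair was thus highest in untreated 3D, where no library overlapped with those of another group. P4HA1 lost its call for MPP on the dish without MPP-treated 2D replicate 2 or 3 (adjusted p = 0.0646 and 0.0862), without untreated 2D replicate 1, 2 or 3 (adjusted p = 0.0548, 0.0617 and 0.0681) and with equal library totals (adjusted p = 0.112). P4HA2 was not called for MPP in the scaffold but passed without MPP-treated 3D replicate 1 (adjusted p = 0.0181) and without untreated 3D replicate 1 (adjusted p = 0.0341). PLOD1 lost its call for the difference between the MPP effects without MPP-treated 3D replicate 2 or 3 (adjusted p = 0.0513 and 0.0646), without MPP-treated 2D replicate 2 or 4 (adjusted p = 0.0537 and 0.0575), without untreated 2D replicate 3 or 4 (adjusted p = 0.0556 and 0.0666), with equal nuclear totals (adjusted p = 0.109) and under quantile normalisation (adjusted p = 0.0706).

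Of 18 partners of these enzymes 17 could be tested, and 12 were higher and 1 lower in untreated 3D than in untreated 2D. P4HB, the disulfide isomerase that forms the other subunit of prolyl 4-hydroxylase, was higher by 0.86 ± 0.070 (adjusted p = 1.62e-09) in log2. With MPP in 3D the partners split, with 5 higher and 6 lower, where P4HB changed by -0.40 ± 0.070 (adjusted p = 1.38e-04) and CRTAP, a partner of collagen prolyl 3-hydroxylase, was among the higher ones.

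Histone demethylases and related JmjC oxygenases need oxygen, iron and 2-oxoglutarate, as the HIF hydroxylases do. Of the 4 genes here, 3 fell with MPP in 3D and 3 in 2D, and 2 were higher in untreated 3D than in untreated 2D. KDM3A removes methyl groups from lysine 9 of histone H3 (mono- and dimethyl), KDM4B and KDM4C act on the trimethyl form, and JMJD6 hydroxylates lysines of splicing factors. KDM4B had 1192, 1360.3, 1343 and 1334 normalised reads in MPP-treated 3D, against 2559, 2811, 2436 and 2995 in untreated 3D. KDM4B in 2D had 1852, 1677, 1922 and 1915 with MPP, against 2345, 2339, 2395 and 2244 untreated. Its 4 groups did not overlap, and MPP-treated 3D was the lowest of all. KDM4B fell by -1.04 ± 0.076 with MPP in 3D (adjusted p = 4.36e-10) and -0.34 ± 0.076 in 2D (adjusted p = 0.00137), written as signed log2 changes from limma. With MPP in both cultures it was lower in 3D, at -0.49 ± 0.076 (adjusted p = 2.18e-05), whereas untreated 3D was higher than untreated 2D by 0.21 ± 0.076 (adjusted p = 0.0296).

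KDM3A had 1863, 1422, 1807 and 1653 normalised reads in MPP-treated 3D, against 2821, 2670.0, 3417 and 2395 in untreated 3D. KDM3A in 2D had 1564, 1438, 1634 and 1879.5 with MPP, against 1882, 1736, 1644 and 1789 untreated. Untreated 3D stood above the other 12 libraries, which overlapped with each other. The log2 change of KDM3A was -0.74 ± 0.10 (adjusted p = 9.40e-06) for MPP in 3D and -0.12 ± 0.10 (adjusted p = 0.404) for MPP in 2D by limma, and the effects differed by -0.62 ± 0.15 (adjusted p = 0.00513). JMJD6 averaged 1258 ± 184, 1839 ± 97.3, 1448 ± 67.6 and 1809 ± 65.3 in MPP-treated 3D, untreated 3D, MPP-treated 2D and untreated 2D (SD, n = 4 each), and it fell with MPP in both cultures. KDM4C averaged 839.8 ± 54.4, 877 ± 149, 692 ± 88.2 and 900.4 ± 84.4 in that order, and only its change of -0.38 ± 0.12 (adjusted p = 0.014) with MPP in 2D passed. KDM4B lost its call for untreated 3D against untreated 2D without untreated 3D replicate 2 or 4 (adjusted p = 0.0759 and 0.101), without untreated 2D replicate 1, 2 or 4 (adjusted p = 0.0509, 0.0536 and 0.0767) and with equal nuclear totals (adjusted p = 0.209). KDM4C lost its call for MPP on the dish without MPP-treated 2D replicate 2 (adjusted p = 0.0625), without untreated 2D replicate 2 (adjusted p = 0.0566) and with equal library totals (adjusted p = 0.0616). KDM4C was not called for MPP-treated 3D against MPP-treated 2D but passed without untreated 3D replicate 3 or 4 (adjusted p = 0.0357 and 0.0323) and without MPP-treated 2D replicate 4 (adjusted p = 0.0264). KDM4C also passed there with DESeq2 (adjusted p = 0.0497) and equal nuclear totals (adjusted p = 0.0445). Quantile normalisation (adjusted p = 0.0472) and only the groups compared (adjusted p = 0.0407) gave the call too. JMJD6 was not called for MPP-treated 3D against MPP-treated 2D but passed without MPP-treated 3D replicate 1 (adjusted p = 0.00212). JMJD6 also passed there with equal library totals (adjusted p = 0.0486), quantile normalisation (adjusted p = 0.0392) and a mean of at least 50 (adjusted p = 0.0482). JMJD6 was not called for the difference between the MPP effects but passed without MPP-treated 3D replicate 1 (adjusted p = 0.0253). Among 20 other JmjC and TET oxygenases, 8 were higher and 1 lower in untreated 3D than in untreated 2D, and MPP in 3D left 2 higher and 5 lower. KDM5B, a demethylase of lysine 4 of histone H3, changed by -0.46 ± 0.087 (adjusted p = 2.57e-04) with MPP in 3D and differed by 0.24 ± 0.087 (adjusted p = 0.0266) between the untreated cultures.

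**Figure D3:**
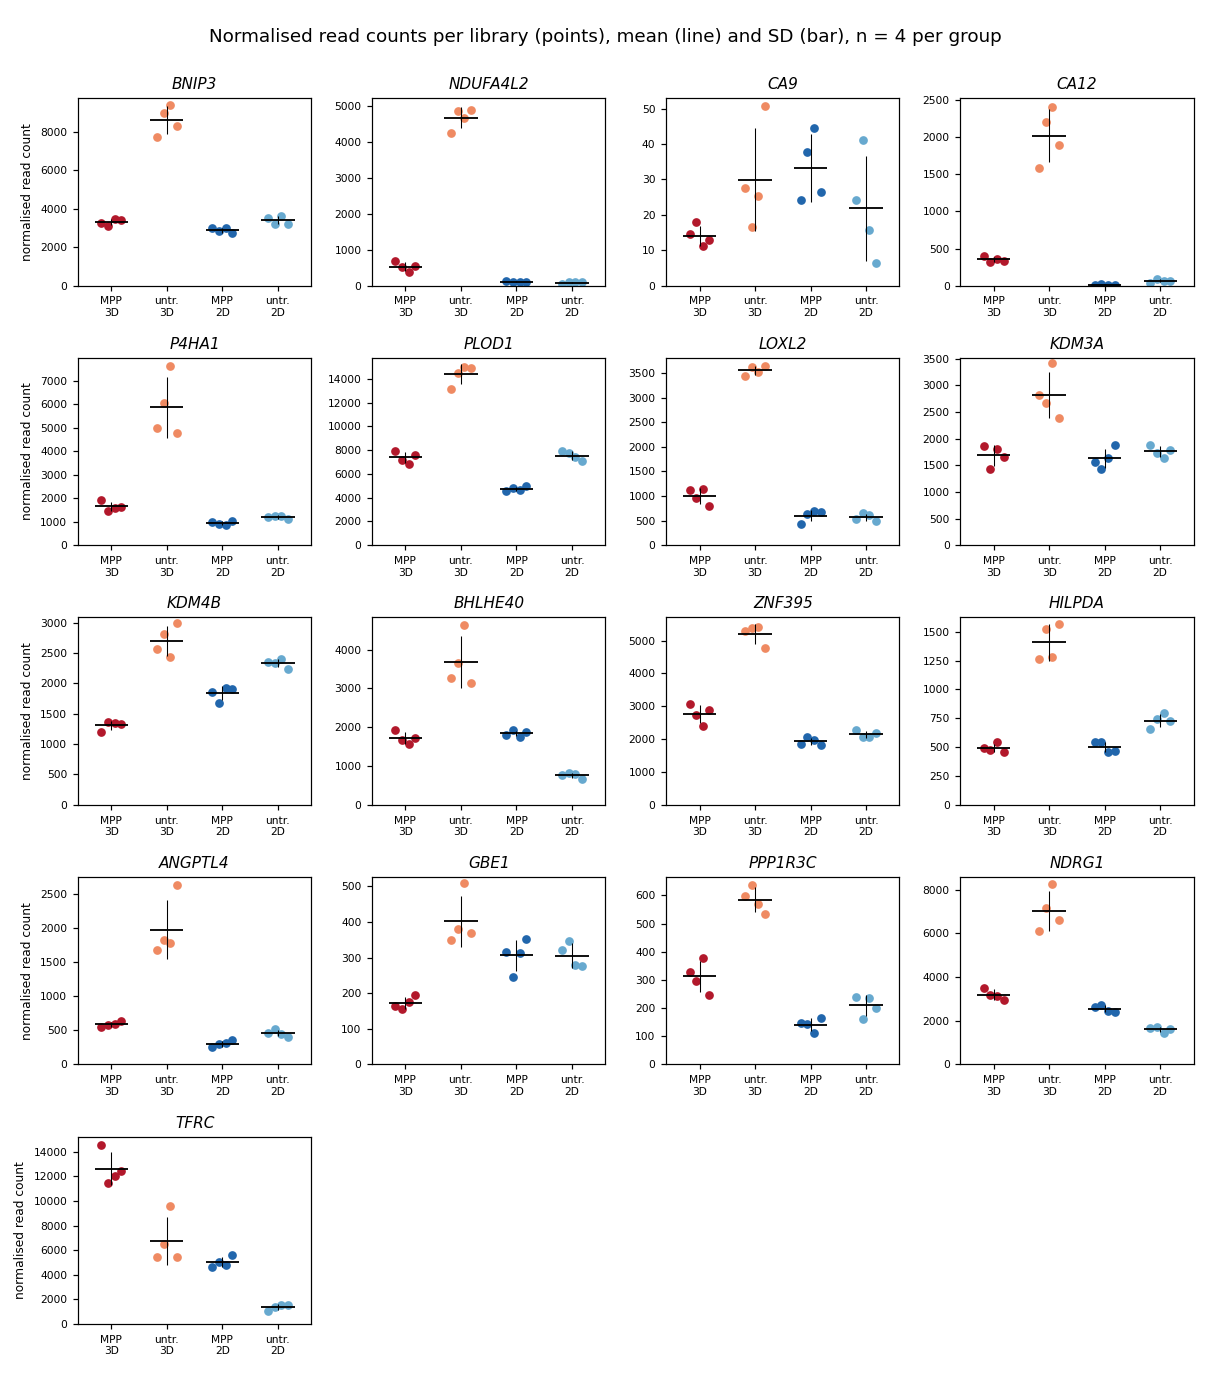
Normalised reads per library (vertical axes, from 0) for the 17 genes described in full, with points for the 4 libraries of a group, a line at the mean and a bar for the SD. Groups run from left to right as MPP-treated 3D, untreated 3D, MPP-treated 2D and untreated 2D. Untreated 3D has the highest mean in every panel but those of CA9 and TFRC.

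Of the 8 genes grouped as transcription regulators, 5 were higher in untreated 3D than in untreated 2D, beside 23.2% of all genes. With MPP, 2 fell in 3D, beside 17.6% of all genes, and 2 rose and 2 fell in 2D, beside 17.7% and 16.9%. With so few genes, these MPP counts were close to the shares of genes at large. BHLHE40 and BHLHE41 are repressors that bind E-boxes and belong to the circadian clock, ZNF395 is a hypoxia-induced zinc finger protein, MXI1 opposes MYC, CITED2 competes with HIF alpha for its coactivators, RORA is a nuclear receptor, and RCOR2 is a corepressor of the CoREST family. BHLHE40 had 1925, 1662, 1567 and 1717 normalised reads in MPP-treated 3D, against 3268, 3661, 4627 and 3135 in untreated 3D. BHLHE40 in 2D had 1796, 1919.7, 1752 and 1881 with MPP, against 772, 817, 783 and 670.0 untreated. With MPP the cultures overlapped, and the treated libraries lay below the untreated ones in 3D and above them in 2D. The log2 change of BHLHE40 was -1.08 ± 0.10 (adjusted p = 2.77e-08) for MPP in 3D and 1.27 ± 0.10 (adjusted p = 3.01e-09) for MPP in 2D, and the effects differed by -2.36 ± 0.14 (adjusted p = 7.99e-11) by limma. Between cultures it was -0.10 ± 0.10 (adjusted p = 0.466) with MPP and 2.26 ± 0.10 (adjusted p = 3.92e-14) untreated.

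ZNF395 had 3074, 2727, 2409 and 2887 normalised reads in MPP-treated 3D, against 5279.5, 5386, 5428 and 4765 in untreated 3D. ZNF395 in 2D had 1864, 2069.8, 1984 and 1814 with MPP, against 2269.5, 2053, 2073 and 2177 untreated. It was highest in the untreated scaffold, intermediate in the scaffold with MPP and lowest in the 2 dish groups. ZNF395 changed by -0.91 ± 0.076 (adjusted p = 4.38e-09) with MPP in 3D on the log2 scale, against -0.15 ± 0.076 (adjusted p = 0.136) in 2D. RCOR2 averaged 4081 ± 339, 4252 ± 587, 2378 ± 217 and 3220.4 ± 108 in MPP-treated 3D, untreated 3D, MPP-treated 2D and untreated 2D (SD, n = 4 each). It was the 1 gene called with a more positive MPP effect in 3D than in 2D, by 0.39 ± 0.13 (adjusted p = 0.0395 by limma). Its log2 changes were -0.053 ± 0.089 in 3D and -0.44 ± 0.089 in 2D. RORA averaged 698 ± 43.9, 797 ± 135, 799 ± 109 and 575 ± 55.5 in the same order, and MXI1 averaged 3364 ± 190.1, 3729 ± 382, 2807 ± 101 and 3301 ± 82.0. CITED2, with group means of 31.0 to 48.4, passed in no comparison, and BHLHE41 was lower in 3D only where both cultures had MPP, at -0.75 ± 0.27 (adjusted p = 0.0322). ANKRD37, an ankyrin repeat protein, was higher in untreated 3D by 0.81 ± 0.27 (adjusted p = 0.0166). MXI1 lost its call for MPP on the dish with equal library totals (adjusted p = 0.163). MXI1 was not called for MPP in the scaffold but passed without untreated 3D replicate 4 (adjusted p = 0.0109). MXI1 was not called for untreated 3D against untreated 2D but passed without MPP-treated 3D replicate 1 (adjusted p = 0.0484) and without untreated 3D replicate 4 (adjusted p = 0.00352). MXI1 also passed there with equal library totals (adjusted p = 0.0473) and with DESeq2 (adjusted p = 0.0408). BHLHE41 was not called for untreated 3D against untreated 2D but passed without untreated 3D replicate 2 (adjusted p = 0.0198). BHLHE41 lost its call for MPP-treated 3D against MPP-treated 2D without MPP-treated 3D replicate 3 or 4 (adjusted p = 0.0893 and 0.0973), without MPP-treated 2D replicate 1, 2 or 3 (adjusted p = 0.0608, 0.08 and 0.0552) and under quantile normalisation (adjusted p = 0.0562). RCOR2 lost its call for the difference between the MPP effects without MPP-treated 3D replicate 1, 2 or 4 (adjusted p = 0.0739, 0.0674 and 0.0656), without untreated 3D replicate 2 or 3 (adjusted p = 0.0819 and 0.0718), without MPP-treated 2D replicate 3 or 4 (adjusted p = 0.0794 and 0.0824) and without untreated 2D replicate 1, 2, 3 or 4 (adjusted p = 0.0794, 0.0631, 0.0562 and 0.0523). ANKRD37 lost its call for untreated 3D against untreated 2D without untreated 3D replicate 4 (adjusted p = 0.0599). ANKRD37 was not called for MPP-treated 3D against MPP-treated 2D but passed without MPP-treated 3D replicate 3 (adjusted p = 0.0164).

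Of the 3 lipid storage genes, HILPDA and ANGPTL4 fell with MPP in both cultures, and PLIN2 passed in neither. HILPDA holds back the lipase of lipid droplets, ANGPTL4 is a secreted inhibitor of lipoprotein lipase, and PLIN2 coats lipid droplets. HILPDA had 489, 478, 547 and 458 normalised reads in MPP-treated 3D, against 1262, 1523, 1281 and 1568 in untreated 3D. HILPDA in 2D had 541, 542, 459 and 469.9 with MPP, against 657, 740.1, 794 and 727 untreated. With MPP the cultures overlapped, and both lay below their own untreated libraries. HILPDA changed by -1.51 ± 0.10 (adjusted p = 1.41e-10) with MPP in 3D and -0.54 ± 0.10 (adjusted p = 3.17e-04) in 2D in log2, and the effects differed by -0.97 ± 0.15 (adjusted p = 4.38e-05) by limma. ANGPTL4 had 554, 582, 593 and 644 in MPP-treated 3D, against 1689, 1822, 1782 and 2636 in untreated 3D. ANGPTL4 in 2D had 256, 294, 308 and 355 with MPP, against 465, 524, 448 and 408 untreated. Its groups were free of overlap, and untreated 3D replicate 4 stood well above the other three libraries of its group. The log2 change of ANGPTL4 was -1.72 ± 0.13 (adjusted p = 8.06e-10) for MPP in 3D and -0.61 ± 0.13 (adjusted p = 9.63e-04) for MPP in 2D.

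PLIN2 averaged 912 ± 47.5, 860.1 ± 112, 914 ± 62.4 and 1026 ± 67.9 in MPP-treated 3D, untreated 3D, MPP-treated 2D and untreated 2D (SD, n = 4 each). It was the 1 gene of the 38 called lower in untreated 3D than in untreated 2D, by -0.26 ± 0.10 (adjusted p = 0.0297) by limma, although the libraries of the groups overlapped. Per kilobase of exon, HILPDA stood at 1.33 ± 0.0492 times PLIN2 in MPP-treated 3D, 4.05 ± 0.453 times in untreated 3D, 1.36 ± 0.190 times in MPP-treated 2D and 1.76 ± 0.251 times in untreated 2D. PLIN2 lost its call for untreated 3D against untreated 2D without untreated 3D replicate 1 or 2 (adjusted p = 0.134 and 0.058), without untreated 2D replicate 1, 2 or 4 (adjusted p = 0.079, 0.0737 and 0.0556) and when only the groups compared were fitted (adjusted p = 0.0636).

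All 3 glycogen genes fell with MPP in 3D. GBE1 makes the branches of glycogen, GYS1 lengthens its chains, and PPP1R3C brings protein phosphatase 1 to glycogen. GBE1 had 163, 154, 176 and 195 normalised reads in MPP-treated 3D, against 350.5, 380.4, 508 and 369.9 in untreated 3D. GBE1 in 2D had 315, 245, 312 and 352 with MPP, against 321, 347, 279 and 275 untreated. The MPP-treated 3D libraries were below the other 12, and the 2 dish groups overlapped. GBE1 changed by -1.21 ± 0.15 (adjusted p = 1.49e-06) with MPP in 3D, against -0.0029 ± 0.15 (adjusted p = 0.991) in 2D, in log2 by limma. PPP1R3C had 329.6, 296, 378 and 248 in MPP-treated 3D, against 598, 639, 569.8 and 532 in untreated 3D. PPP1R3C in 2D had 148, 144, 110.2 and 164 with MPP, against 239, 162, 237 and 199 untreated. Both scaffold groups lay above both dish groups. PPP1R3C changed by -0.91 ± 0.16 (adjusted p = 1.30e-04) in 3D and -0.56 ± 0.16 (adjusted p = 0.00978) in 2D with MPP, and the difference of -0.35 ± 0.23 did not pass (adjusted p = 0.338). GYS1 averaged 696 ± 129, 909 ± 61.2, 905 ± 45.7 and 1044 ± 43.8 (SD, n = 4 each) in the order used above, with a log2 change of -0.40 ± 0.11 (adjusted p = 0.00565) for MPP in 3D. With MPP in both cultures, GBE1 and GYS1 were lower in 3D, at -0.82 ± 0.15 (adjusted p = 1.39e-04) and -0.40 ± 0.11 (adjusted p = 0.00549), whereas PPP1R3C was higher. GBE1 lost its call for untreated 3D against untreated 2D without untreated 3D replicate 2 or 3 (adjusted p = 0.0502 and 0.146), without untreated 2D replicate 3 or 4 (adjusted p = 0.0958 and 0.1) and with equal nuclear totals (adjusted p = 0.0983). Of 26 lipid droplet and glycogen partners, untreated 3D had 12 higher and 8 lower than untreated 2D, and MPP in 3D left 7 higher and 9 lower.

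The signalling and iron genes held 4 of the 6 genes called higher with MPP on the dish, and TFRC, the 1 gene called higher in the scaffold. TFRC, the transferrin receptor, brings iron into cells, and its mRNA is stabilised by iron regulatory proteins when iron is scarce. TFRC had 14553, 11456, 12029.5 and 12437 normalised reads in MPP-treated 3D, against 5472, 6533, 9566 and 5409.7 in untreated 3D. TFRC in 2D had 4674, 5046, 4761 and 5595 with MPP, against 1080.5, 1410.4, 1524 and 1538 untreated. It was higher with MPP and higher in the scaffold without overlap in any of the 4 comparisons. TFRC changed by 0.94 ± 0.14 (adjusted p = 1.61e-05) with MPP in 3D and 1.86 ± 0.14 (adjusted p = 1.01e-09) in 2D in log2, and the rise was smaller in 3D by -0.93 ± 0.20 (adjusted p = 0.00188) by limma. Its 3D excess was 1.33 ± 0.14 (adjusted p = 9.86e-08) with MPP and 2.25 ± 0.14 (adjusted p = 1.11e-11) untreated. Among the 11 iron handling genes, TFRC included, MPP in 3D left 4 higher and 1 lower. FTH1, the ferritin heavy chain that stores iron, rose with TFRC, at 0.44 ± 0.067 (adjusted p = 2.19e-05) in 3D and 0.45 ± 0.067 (adjusted p = 2.14e-05) in 2D.

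NDRG1, a stress-responsive cytoplasmic protein, moved in opposite directions with MPP in the 2 cultures. NDRG1 had 3517, 3197, 3115 and 2942 normalised reads in MPP-treated 3D, against 6090.3, 7186, 8241 and 6634 in untreated 3D. NDRG1 in 2D had 2642, 2715, 2445 and 2398 with MPP, against 1653, 1731, 1452 and 1615 untreated. All 4 groups were free of overlap. NDRG1 changed by -1.13 ± 0.086 (adjusted p = 7.73e-10) with MPP in 3D and 0.66 ± 0.086 (adjusted p = 3.43e-06) in 2D in log2, and the effects differed by -1.80 ± 0.12 (adjusted p = 4.09e-10) by limma. WSB1, part of a ubiquitin ligase, averaged 22067 ± 3299.7, 18027 ± 2511, 22290.5 ± 2949 and 7719 ± 1219 in MPP-treated 3D, untreated 3D, MPP-treated 2D and untreated 2D (SD, n = 4 each). It rose with MPP on the dish, by 1.53 ± 0.12 (adjusted p = 2.88e-09), to a level that overlapped with the scaffold. RAB20, a small GTPase, averaged 549.6 ± 94.9, 439 ± 35.3, 292 ± 52.9 and 169.6 ± 20.3 in the same order and rose with MPP on the dish by 0.77 ± 0.15 (adjusted p = 3.84e-04). PPFIA4, a liprin of synapses, fell with MPP in 3D by -0.55 ± 0.11 as a signed log2 change (adjusted p = 5.00e-04), and ANKZF1, a factor of ribosome quality control, was higher in untreated 3D by 0.68 ± 0.13 (adjusted p = 1.32e-04). WSB1 was not called for MPP in the scaffold but passed without MPP-treated 3D replicate 3 (adjusted p = 0.0443), without untreated 3D replicate 1 (adjusted p = 0.0199), without MPP-treated 2D replicate 4 (adjusted p = 0.0499) and without untreated 2D replicate 1 (adjusted p = 0.0449). WSB1 also passed there with equal library totals (adjusted p = 0.0165), equal nuclear totals (adjusted p = 0.0405) and quantile normalisation (adjusted p = 0.0454). PPFIA4 was not called for MPP on the dish but passed without MPP-treated 3D replicate 1 (adjusted p = 0.0487), without untreated 3D replicate 1 (adjusted p = 0.0497) and without MPP-treated 2D replicate 4 (adjusted p = 0.0331). PPFIA4 also passed there with equal library totals (adjusted p = 0.0126), only the groups compared (adjusted p = 0.0203) and the replicate block (adjusted p = 0.0462). PPFIA4 was not called for MPP-treated 3D against MPP-treated 2D but passed without MPP-treated 3D replicate 3 or 4 (adjusted p = 0.0266 and 0.033), without untreated 3D replicate 1 (adjusted p = 0.0482) and with the replicate block (adjusted p = 0.0443). ANKZF1 lost its call for MPP-treated 3D against MPP-treated 2D without MPP-treated 3D replicate 1 (adjusted p = 0.113) and without MPP-treated 2D replicate 3 or 4 (adjusted p = 0.0549 and 0.0797).

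Across the 38 genes, the MPP effects in 3D and in 2D, which share no libraries, had a Pearson r of 0.479 and a Spearman rho of 0.372, with the same sign for 27 genes (71.1%). All 16984 genes had a Pearson r of 0.394, a rho of 0.439 and the same sign for 67.6%. The members' likeness was thus near that of genes at large. The effect in 3D was the higher one for 4 of the 38 genes, which were KDM4C, MXI1, PLIN2 and RCOR2. Among all 16984 genes, the effect in 3D was the higher one for 8118. The culture differences with MPP and without it also share no libraries. Across the members they had a Pearson r of 0.812 and a rho of 0.684. All genes had a Pearson r of 0.626 and a rho of 0.550. With MPP the culture difference was the larger one in size for 10 of the 38, beside 7525 of all 16984 genes. These correlations run across genes, which are not independent replicates.

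**Figure D4:**
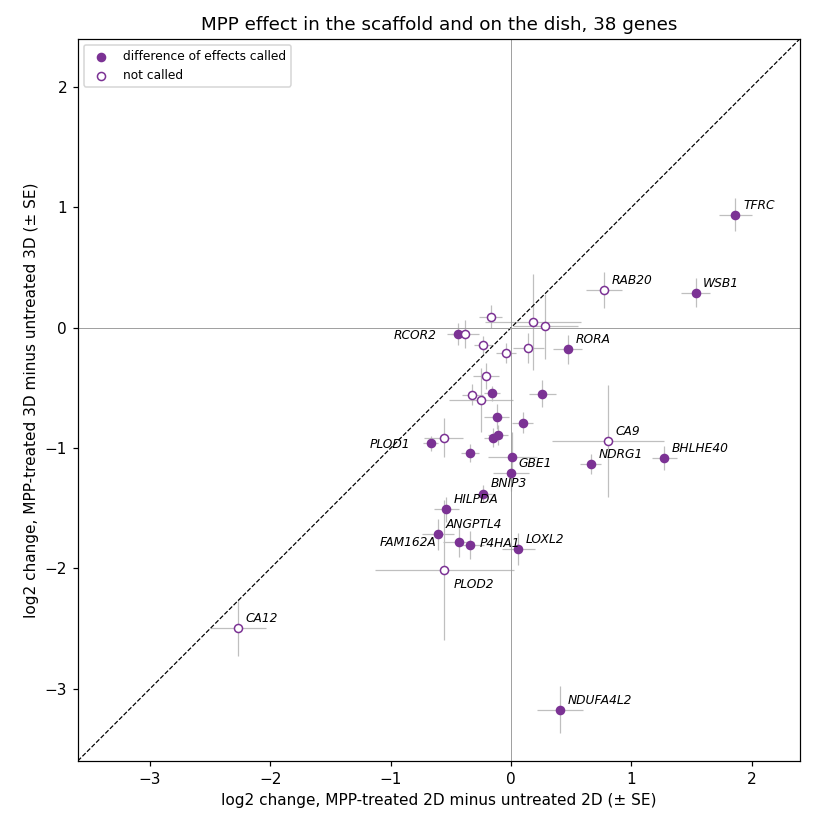
Log2 change with MPP in 3D (vertical axis) against that in 2D (horizontal axis) for the 38 genes, with SE bars, and the dashed line where both are equal. Filled points are the 23 genes whose difference of effects passed an adjusted p under 0.05. Of these, 22 lie below the line, NDUFA4L2 farthest at a difference of -3.58 and BHLHE40 next at -2.36, and RCOR2 lies above it at 0.39.

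Libraries of a group did not all agree. Untreated 3D replicate 3 held the highest value of its group for 18 of the 38 genes, with a median deviation from the group mean of 0.058 in log2, and replicate 1 held the lowest for 16, with a median of -0.12. MPP-treated 3D replicate 1 held the highest value of its group for 21 genes, with a median deviation of 0.11. The same medians over all genes tested were 0.012, -0.013 and 0.0089. With each of the 16 libraries left out in turn, 24 to 25 genes were lower with MPP in 3D and 28 to 31 higher in untreated 3D than in untreated 2D.

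**Figure D5:**
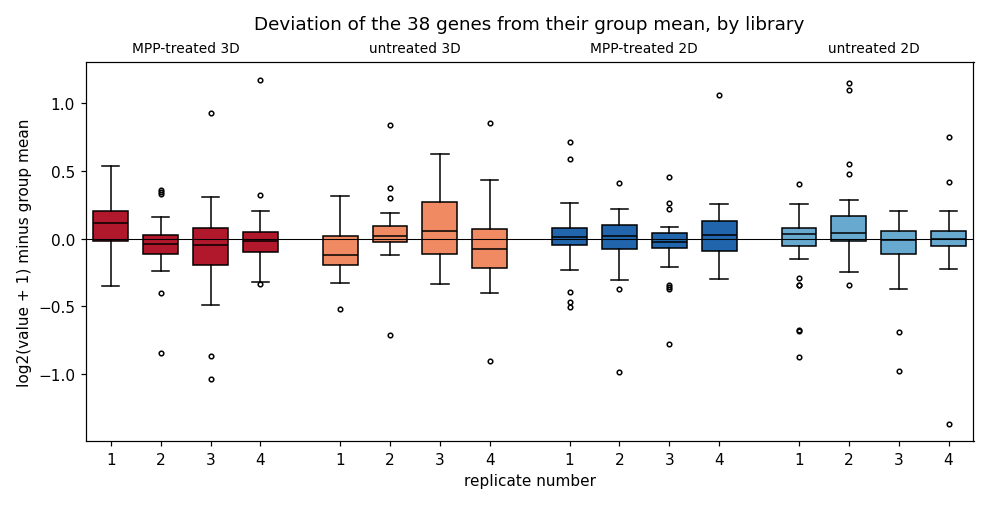
Deviation of each of the 38 genes from its group mean (vertical axis, log2 of value plus 1) in each library (horizontal axis, replicate number), as boxes of the quartiles with the median line, whiskers to 1.5 interquartile ranges and points beyond. Replicate 1 of MPP-treated 3D has the highest median at 0.11 and replicate 1 of untreated 3D the lowest at -0.12.

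Other genes of the oxygen pathway are given from lists. The 24 glycolytic and angiogenic targets of HIF, which are not members, are given as counts and medians. Of these, 23 were higher and 0 lower in untreated 3D than in untreated 2D, beside 23.2% and 23% of all genes. With MPP in 3D, 0 were higher and 24 lower, beside 17% and 17.6%. With MPP in 2D, 3 of them were higher and 11 lower, beside 17.7% and 16.9% of all genes. Where both cultures had MPP, 2 were higher and 9 lower in 3D, beside 19% and 19.9%. In these last comparisons the shares called higher lay below those of genes at large. Their median log2 change was -1.58 for MPP in 3D and 1.22 between the untreated cultures, on the scale where the 38 members had -0.84 and 1.01. VEGFA, the growth factor of vessels, changed by -2.46 ± 0.091 (adjusted p = 2.51e-15) with MPP in 3D and 0.79 ± 0.091 (adjusted p = 7.09e-07) in 2D by limma. Of 16 genes of oxygen sensing 15 could be tested. In untreated 3D against untreated 2D, EGLN1, EGLN3, HIF3A and EPAS1 were higher and HIF1A was lower, with HIF3A named here after its values were seen.

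HIF1A, an alpha subunit, averaged 11631 ± 1116 normalised reads in MPP-treated 3D, 6839 ± 1415 in untreated 3D, 16141 ± 1206 in MPP-treated 2D and 8899 ± 422 in untreated 2D (SD, n = 4 each). Its mRNA rose with MPP in both cultures, by 0.78 ± 0.10 (adjusted p = 4.19e-06) in 3D and 0.86 ± 0.10 (adjusted p = 1.44e-06) in 2D. EPAS1, the other main alpha subunit, averaged 20686 ± 4006, 25004 ± 1397, 3236 ± 57.5 and 5531 ± 237 in that order. EPAS1, unlike HIF1A, was called lower with MPP in both cultures. EPAS1 was higher in the scaffold by 2.66 ± 0.094 (adjusted p = 1.70e-15) with MPP and 2.18 ± 0.094 (adjusted p = 2.10e-14) untreated. EGLN1 and EGLN3, prolyl hydroxylases that are HIF targets themselves, fell with MPP in 3D, by -0.94 ± 0.083 (adjusted p = 1.15e-08) and -0.79 ± 0.11 (adjusted p = 5.02e-06) as signed log2 changes. EGLN1 and EGLN3 were also called lower with MPP in 2D. Of the 15 oxygen sensing genes tested, MPP in 3D left 2 higher and 5 lower, beside 17% and 17.6% of all genes. MPP in 2D left 3 higher and 5 lower, beside 17.7% and 16.9%. The HIF proteins and oxygen were not measured. For MPP in 3D the median log2 change was -0.15 for the oxygen sensing genes, 0.030 for the mitophagy partners, -0.038 for the collagen partners and -0.076 for the other JmjC and TET oxygenases. It was -0.034 for the lipid droplet and glycogen partners, 0.15 for iron handling and 0.47 for the pH genes, beside 0.0033 for all genes tested. Between the untreated cultures the same medians, in that order, were 0.15, -0.10, 0.45, 0.17, 0.045, 0.11 and -0.24, beside 0.010 for all genes tested.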

How the data were processed

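Poly-A RNA of 16 SH-SY5Y libraries was sequenced. The authors deposited a normalised signal, in which each gene's read count stands divided by 1 DESeq2 size factor of its library, per the file headers and the values. CASAVA 1.8.2, FastQC, STAR, featureCounts and DESeq2 are named with build GRCh38.p13, per the submitters' processing notes. No source used here gives settings, annotation or strand use, so reads of overlapping antisense genes cannot be separated. Every value came out as a whole number of reads (100% within 0.01 reads), and listed genes had at least 11 reads in all.

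The 16984 genes that reached 10 normalised reads in 4 or more libraries entered a limma fit (version 3.58.1, R 4.3.3, mean-variance trend) on log2(value + 1), all 16 libraries together, with 4 group means and no covariate. Benjamini-Hochberg adjusted p-values run over all genes tested, calls needed a value under 0.05, and values are limma's unless said. Recovered reads were also tested with edgeR 4.0.16 and DESeq2 1.42.0. edgeR called 2836 genes higher and 2979 lower for MPP in 3D, where limma called 2882 and 2997. The fit was checked on simulated data. The other alternatives were 3 scalings, pseudocounts (0.5, 5), dropping the filter or asking for a mean of at least 50, separate fits, a replicate block and leaving out each library. Libraries of a group differed by more than sampling noise (24 pairs, chi-square per degree of freedom of at least 6.43).

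Members and lists were chosen with earlier results of these data known. Values in every library are given, per role, for the 2 genes of smallest p between untreated cultures, the 2 for MPP in 3D and the 1 for the difference of MPP effects. Of the other lists, the 2 genes of smallest p per comparison could be named. Per-kilobase levels used exon lengths of GENCODE release 29. Symbols of 19827 of the 19898 genes matched RefSeq, and motif positions count the first base of a match from the transcript start.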

Additional observations from a re-analysis of the deposited data

Results flagged for a closer look

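In 6 of 152 groups of 4 libraries, 1 library lay far from the other three of its group, where chance gives about 1 in 20 groups. These were MPP-treated 3D replicate 1 for LOX (325 normalised reads, highest), JMJD6 (1531, highest) and KDM4B (1192, lowest), and MPP-treated 3D replicate 3 for KDM4C (920.4, highest). The others were untreated 3D replicate 4 for ANGPTL4 (2636, highest) and untreated 2D replicate 2 for RORA (492, lowest).

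For 23 genes the MPP effect in 3D differed from that in 2D by limma (adjusted p under 0.05), and the values are differences of log2 changes, 3D minus 2D. Among mitochondrial genes the difference was -1.14 for BNIP3, -0.39 for BNIP3L, -1.34 for FAM162A, -3.58 for NDUFA4L2 and -0.89 for AK4. Among collagen and disulfide enzymes it was -1.47 for P4HA1, -0.29 for PLOD1, -1.08 for LOX, -1.90 for LOXL2 and -0.79 for ERO1A. Among JmjC oxygenases and transcription regulators it was -0.62 for KDM3A, -0.70 for KDM4B, -2.36 for BHLHE40, -0.65 for RORA, -0.76 for ZNF395 and 0.39 for RCOR2. Among storage genes it was -0.97 for HILPDA, -1.11 for ANGPTL4 and -1.21 for GBE1. Among signalling genes it was -1.80 for NDRG1, -0.93 for TFRC, -1.24 for WSB1 and -0.81 for PPFIA4.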

How the results depend on the processing

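Under 27 alternatives no called value changed direction, and 33 of 190 pairs of gene and comparison lost or gained a call, the lost ones named with their genes above. Gained calls not named above were those of GYS1, ZNF395 and RAB20. GYS1 passed for MPP in 2D with only the groups compared (adjusted p = 0.0233) and between untreated cultures with equal nuclear totals (adjusted p = 0.0394). ZNF395 passed for MPP in 2D with equal nuclear totals (adjusted p = 0.0468), and RAB20 for MPP in 3D with equal library totals (adjusted p = 0.0411). Counts that moved by over 1.5 times were small ones. Genes higher with MPP in 3D numbered 3 with equal library totals, 2 with equal nuclear totals and 2 with quantile normalisation, and genes lower in untreated 3D than in untreated 2D numbered 2 with equal nuclear totals and 0 with only the groups compared. With 1 library left out, the counts higher and lower ran from 1 to 2 and 24 to 25 for MPP in 3D, 6 to 7 and 11 to 14 for MPP in 2D, and 17 to 20 and 3 to 5 for 3D against 2D with MPP. They ran from 28 to 31 and 0 to 1 for the untreated cultures and from 0 to 1 and 21 to 23 for the difference of MPP effects. Equal library totals moved the median of all genes for MPP in 2D by 0.10 in log2, with 70.3% of calls higher against 51.1%, and for MPP in 3D 66.0% against 49.0%. Equal nuclear totals moved that of the difference by 0.10, and gave 38.3% higher against 50.2% for the untreated cultures and 59.3% for MPP in 3D. The cause was not tested. Leaving out WSB1 and TFRC, chosen after seeing the data, turned the change in the members' mean share of reads with MPP in 2D to -0.0035 percentage points, against 0.052 with all 38. The replicate block used numbers that do not pair the samples (same-number correlations of -0.11 to 0.090), and it gained calls for PPFIA4 alone (adjusted p = 0.0462 for MPP in 2D and 0.0443 for 3D against 2D with MPP). The difference of effects has no value with only the groups compared. Depth limits CA9, PLOD2 and CITED2, whose means over 16 libraries ran from 24.8 to 38.8 normalised reads.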
